A study of Mus musculus with 45 samples.

Results

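The genes described here are the secreted Wnt ligands, their Frizzled (Fzd) receptors and the secreted antagonists of the Dkk (Dickkopf) and Sfrp (secreted Frizzled-related protein) families, followed through embryoid body formation of 3 mouse embryonic stem cell lines. Members were chosen by gene symbol, and they came to 37 of the 18193 genes with a usable probe set: 19 Wnt genes, 10 Fzd genes, 4 Dkk genes and 4 Sfrp genes. The study profiled total RNA on Affymetrix Mouse430 2.0 arrays from male embryonic stem cells (ESCs) of strain 129 and from embryoid bodies (EBs), which are cell aggregates that the study formed in hanging drops. Its 3 lines were untransfected wild-type cells (WT), a line carrying a scrambled control (SCR) and a line labelled as silenced for Strip2 (KD). Each line gave 3 arrays before differentiation and 3 at each of days 4, 8, 12 and 16 of EB culture, which makes 45 arrays. Nothing in the labels says that arrays of a group came from separate cultures or that more than 1 clone of a line was used, so the errors and p-values measure the spread between these arrays.

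Values are deposited log2 levels, 1 probe set per gene, and a difference of 1 is a change of 2-fold. A gene was called when its Benjamini-Hochberg adjusted p in limma's moderated test, adjusted over all 18193 genes of a comparison, was under 0.05. Of the 37 members, 14 had a mean level above that of the median gene (6.21) and 9 lay below the lower quartile of gene means (4.18), where a low level and no level cannot be told apart. Correlation between arrays of a group ran from 0.9888 to 0.9961. In each line 1 of the day 8 arrays, the first, has ESCs as its cell type in the labels. It was kept at day 8, where its title and source put it.

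In ESCs the Strip2 probe set could not check the label, since it lay under the lower quartile of gene means in all 3 lines. Strip2 was at 2.72 in KD-labelled ESCs, 2.85 in SCR ESCs and 2.70 in WT ESCs, with adjusted p = 0.71 against SCR and 0.97 against WT. In the EBs it was lower in the KD-labelled line than in SCR at day 12 (-0.92, adjusted p = 1e-04) and day 16 (-1.56, adjusted p = 8.6e-09), where SCR itself was above WT by 1.55 and 1.97. At days 4 and 8 it was not called against SCR (0.46, adjusted p = 0.052, and 0.04, adjusted p = 0.88). Against WT it was higher at day 12 (0.63, adjusted p = 0.0061) and not called at any other stage. The KD-labelled and WT means lay under the lower quartile of gene means at every EB day, at 3.75 and 3.12 on day 12. Whether this probe set reads the silenced transcript is not given in the sources used here. The line is therefore called KD-labelled throughout, since all directions given for it depend on that label.

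Marker genes set the background against which the members have to be read. In WT and SCR EBs the mean log2 level of 7 pluripotency genes (Pou5f1, Sox2, Nanog, Zfp42, Esrrb, Fgf4 and Tdgf1) was between 4.40 and 7.33 on every array, against 10.92 to 11.81 in ESCs of the same lines. In KD-labelled EBs it stayed between 10.92 and 11.18 on every array, close to the 11.42 to 11.48 of the KD-labelled ESCs. The aggregates labelled as 16-day EBs of the KD line therefore carried the defining markers of ESCs at nearly the undifferentiated level. Arrays of whole aggregates cannot tell fewer cells of a type from less RNA per cell, and this holds for every difference below.

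Wnt proteins are secreted, lipid-modified signals that bind Frizzled receptors on neighbouring cells. With the co-receptors Lrp5 and Lrp6 this stabilises beta-catenin, which enters the nucleus and acts through TCF and LEF factors, while other Wnt and Frizzled pairs act on cell polarity and movement without beta-catenin. Dkk proteins block the co-receptors, and Sfrp proteins carry a Frizzled-like domain that binds Wnt ligands outside the cell. In the early mouse embryo Wnt3 is required for the primitive streak, the site where mesoderm and endoderm form, and several other members act in the mesoderm that leaves it.

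The stretch of 250 bases before the annotated start was read for the members with a RefSeq window (GRCm38.p6), which were 25 of 37 members with 28 windows. The 4 shown belong to genes that were highest in control EBs at day 4 (Wnt3 and Dkk1) or from day 8 on (Fzd1 and Dkk2), and all 4 are described below. Capitals mark matches to the TCF/LEF core CTTTGA or its reverse complement TCAAAG, and each line runs 5′ to 3′ towards the start of the gene.
Wnt3 (chr11:103773925-103774174, plus strand): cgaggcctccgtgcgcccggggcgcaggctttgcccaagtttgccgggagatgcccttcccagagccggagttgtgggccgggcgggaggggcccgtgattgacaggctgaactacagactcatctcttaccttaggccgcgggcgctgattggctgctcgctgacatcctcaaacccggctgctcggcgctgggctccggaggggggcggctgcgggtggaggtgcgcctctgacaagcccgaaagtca
Dkk1 (chr19:30549497-30549746, minus strand): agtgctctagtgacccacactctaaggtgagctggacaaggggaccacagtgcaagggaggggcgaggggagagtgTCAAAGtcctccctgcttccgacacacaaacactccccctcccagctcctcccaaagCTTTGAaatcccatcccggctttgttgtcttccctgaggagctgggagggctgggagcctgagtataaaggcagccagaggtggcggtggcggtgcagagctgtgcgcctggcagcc
Fzd1 (chr5:4758217-4758466, minus strand): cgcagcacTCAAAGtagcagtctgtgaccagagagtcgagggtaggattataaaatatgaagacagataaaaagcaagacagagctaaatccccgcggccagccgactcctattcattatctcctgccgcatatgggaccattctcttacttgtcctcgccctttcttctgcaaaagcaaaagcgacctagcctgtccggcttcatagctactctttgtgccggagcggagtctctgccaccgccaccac
Dkk2 (chr3:132085042-132085291, plus strand): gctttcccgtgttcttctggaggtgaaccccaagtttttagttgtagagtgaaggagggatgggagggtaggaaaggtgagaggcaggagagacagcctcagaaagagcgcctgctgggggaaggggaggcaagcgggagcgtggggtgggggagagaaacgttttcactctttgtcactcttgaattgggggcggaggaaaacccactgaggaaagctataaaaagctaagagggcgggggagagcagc
The Dkk1 window held 2 matches, whose first bases lie 117 and 174 bases before the start, and the Fzd1 window held 1 match 242 bases before it. The Wnt3 and Dkk2 windows held none of these letters. Over the set, 4 of 28 member windows carried CTTTGA on either strand, beside 13.8% of all 32851 windows of that length. The T-box core AGGTGT, searched on both strands and sharing no letters with the first motif where both occurred, was in 2 of 28 member windows and in 11.8% of all windows. A match is a description of letters and not of binding.

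The member windows had a higher median GC content than all windows, at 69.4% against 52.4%, and more CG pairs, with a median of 22 against 6. Their GC content varied widely, from 48.4% for Wnt8b (5 CG pairs) to 87.6% for Wnt3a (41 CG pairs). The number of CG pairs ran from 4 in a Wnt5b window to 48 for Wnt9a. The windows of Dkk1, Dkk2 and Fzd1 printed above held 6, 7 and 12 CG pairs, and that of Wnt3 held 22. Some Wnt genes are close neighbours on a chromosome, each pair on opposite strands, and their levels differed in range. The starts of Wnt3 and Wnt9b lie 24.4 kb apart on chromosome 11, and group means ranged over 2.96 log2 units for Wnt3 and over 0.82 for Wnt9b. Wnt3a and Wnt9a start 16.2 kb apart on the same chromosome, with ranges of 0.69 and 2.44, and Wnt1 and Wnt10b start 11.7 kb apart on chromosome 15, with ranges of 0.29 and 0.84.

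In the control lines the members moved with differentiation, and in the KD-labelled line fewer of them did. In WT EBs 25 members differed from WT ESCs at day 4 (18 higher and 7 lower), as did 41.7% of all genes. At day 8 the WT count was 25 (background 56.6%), at day 12 it was 26 (60%) and at day 16 it was 28 (66.2%). SCR EBs differed from SCR ESCs in 19 members at day 4 (42.5% of all genes), 26 at day 8 (58.2%), 30 at day 12 (66.6%) and 33 at day 16 (71.8%). In KD-labelled EBs the counts were 15 at day 4 (23.9%), 16 at day 8 (36.9%), 20 at day 12 (43.4%) and 16 at day 16 (38.1%). The last of these fell to 10 without the first KD-labelled ESC array. The share of members called was above the share of all genes in each of these comparisons.

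The size of the movement varied widely between members. In WT the range of stage means was widest for Dkk2 (6.13 log2 units), Wnt2 (5.59), Wnt5a (5.48), Fzd1 (5.21) and Dkk1 (4.97). In the KD-labelled line the same genes ranged over 0.17, 0.42, 1.83, 1.11 and 3.72. These genes were picked by their WT range, which favours a narrower range in another line. Some members ranged more widely in the KD-labelled line than in either control, such as Fzd6 (1.61, against 1.02 in WT and 0.89 in SCR). At the other end, Wnt1, Sfrp5 and Dkk4 ranged over 0.29, 0.26 and 0.36 log2 units across all 15 groups.

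**Figure D1:**
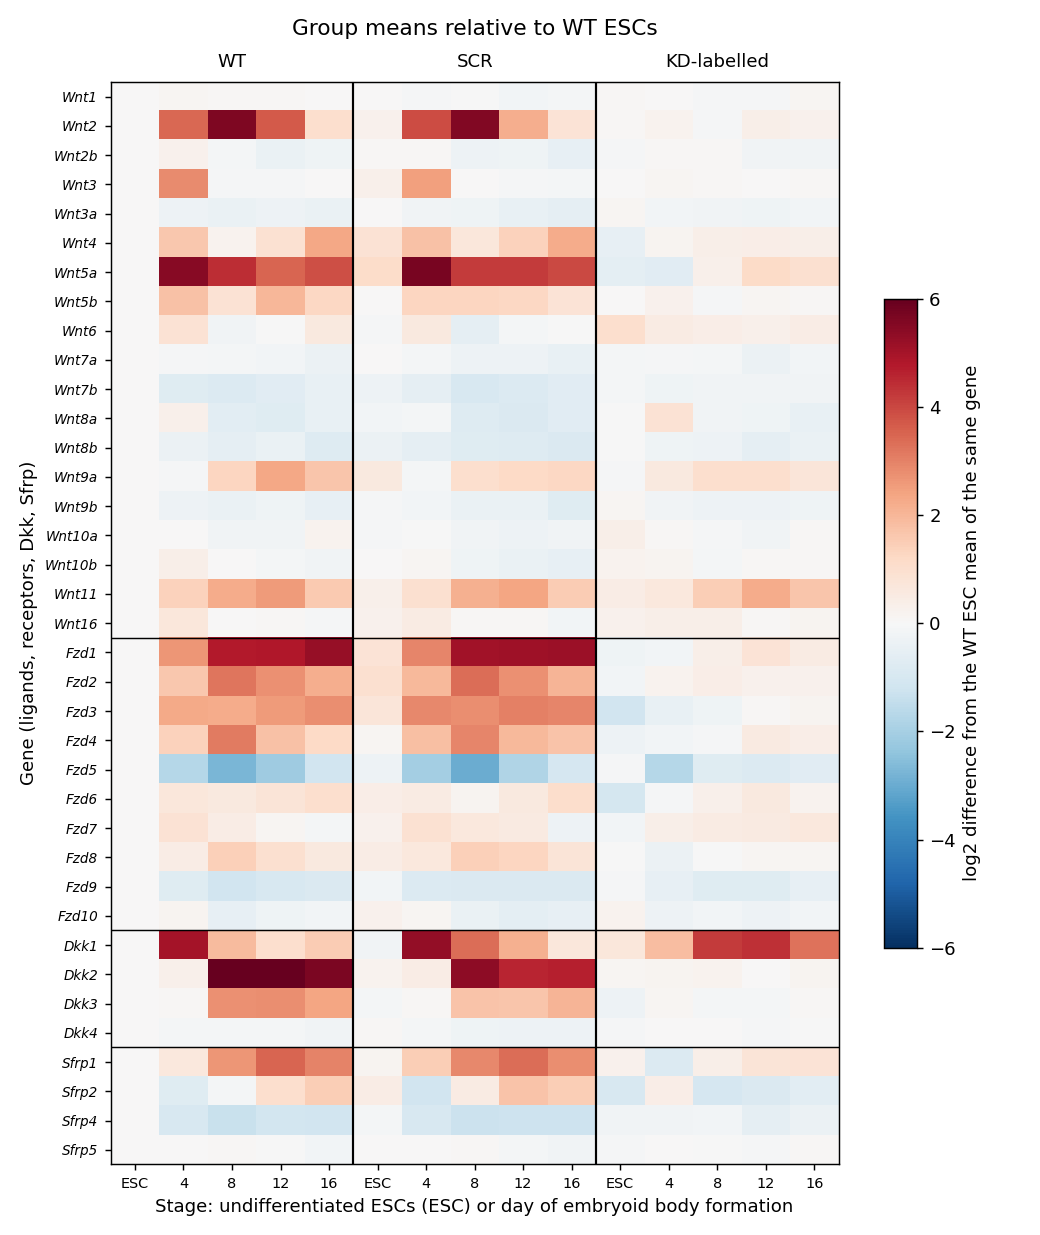
Each row is a member and each column a line and stage; colour gives the group mean as a log2 difference from the WT ESC mean of the same gene, so rows can be read across but levels of different genes are not compared. Red blocks of Wnt2, Wnt5a, Fzd1 to Fzd4, Dkk2, Dkk3 and Sfrp1 stand in the WT and SCR columns and are pale in the KD-labelled columns, while Dkk1 is red at day 4 in both controls and from day 8 in the KD-labelled line.

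Between the lines, most called members were lower in the KD-labelled line, although over all genes more were called higher than lower against SCR. Against SCR, 3 members were higher and 11 lower in ESCs, where 12.3% of all genes were called higher and 11.3% lower. At day 4 the counts were 5 higher (22.6% of all genes) and 15 lower (19.9%). At day 8 they were 8 higher (28%) and 13 lower (24.7%), and at day 12 they were 7 higher (31%) and 13 lower (24.6%). At day 16 they were 12 higher (39.8%) and 15 lower (26.8%). The count of 14 in ESCs fell to 9 without the first SCR ESC array.

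Against WT the pattern was of the same kind, though the 2 sets of comparisons share the KD-labelled arrays. In ESCs 1 member was higher (8.66% of all genes) and 4 were lower (9.78%). At day 4, 5 were higher (19.2%) and 17 lower (19.9%). At day 8, 7 were higher (26%) and 13 lower (23.9%), followed at day 12 by 6 higher (27.1%) and 14 lower (23.6%). At day 16, 5 were higher (34.6%) and 15 lower (26.1%). The members' median difference from WT was -0.22 at day 4, -0.02 at day 8, -0.10 at day 12 and -0.02 at day 16, beside -0.01, 0.05, 0.04 and 0.13 for all genes. From SCR it was -0.10, 0.04, -0.01 and 0.24 at those days, beside 0.03, 0.07, 0.10 and 0.17.

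Calls of small differences at day 16 depended on the scaling of the arrays. The median of all genes stood 0.17 above SCR as deposited, 0.25 above it after centring each array on its median and 0.05 above it after cyclic loess. The member split there was 12 higher and 15 lower as deposited, 17 and 13 with centring and 7 and 15 with cyclic loess, so that 44.4%, 56.7% and 31.8% of called members were higher. No member changed sign between calls under either scaling.

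The 2 control lines differed in fewer members. SCR and WT differed in 6 members in ESCs (10.2% of all genes), all higher in SCR: Wnt4, Wnt5a, Fzd1, Fzd2, Fzd3 and Fzd8. They differed in 1 member at day 4 (Sfrp1, 1.93% of all genes), 3 at day 8 (6.99%), 8 at day 12 (14.7%) and 2 at day 16 (8.11%). These small counts rest on single arrays. In ESCs the count was 2 without the third WT array and 1 without the first SCR array, and the 1 call at day 4 was lost without the second or the third SCR array. At day 12 it was 4 without the first WT array, 5 without the third WT array and 5 without the second SCR array. At day 16 it was 1 without the third WT array, the second SCR array or the third SCR array. At day 8 the split of 2 higher and 1 lower became 2 and 2 with arrays centred and 2 and 2 with cyclic loess.

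Among the ligands, Wnt5a showed the largest difference between the lines. Wnt5a encodes a ligand known mainly for signalling without beta-catenin, in the outgrowth of mesodermal tissues. It rose early in both control lines, stayed high to day 16 and was far lower in the KD-labelled EBs.
Wnt5a in the WT arrays read 4.18, 4.17 and 4.29 in ESCs, 9.93, 9.76 and 9.38 at day 4, 8.69, 8.61 and 8.64 at day 8, 7.73, 8.19 and 7.22 at day 12, and 7.9, 8.46 and 7.85 at day 16. Wnt5a in the SCR arrays read 5.61, 5.94 and 4.33 in ESCs, 10.02, 9.55 and 10.16 at day 4, 8.49, 8.18 and 8.49 at day 8, 7.99, 8.69 and 8.51 at day 12, and 8.24, 7.87 and 8.4 at day 16. Wnt5a in the KD-labelled arrays read 3.94, 3.71 and 3.28 in ESCs, 3.75, 3.24 and 3.54 at day 4, 4.64, 4.62 and 4.27 at day 8, 5.42, 5.01 and 5.58 at day 12, and 5.13, 4.7 and 5.69 at day 16. At every EB day all 3 KD-labelled arrays lay below all 6 control arrays. The difference from SCR was widest at day 4, at -6.4 (SE 0.28, adjusted p = 4.5e-20), and the difference from WT there was -6.18 (SE 0.28, adjusted p = 1.5e-19). The KD-labelled mean lay under the lower quartile of gene means (4.18), so no fold is given. Wnt5a did rise late in the KD-labelled line, by 1.69 over its ESCs at day 12. In ESCs it was lower than in SCR (-1.65, SE 0.28, adjusted p = 2.3e-05) but not called against WT (-0.57, SE 0.28, adjusted p = 0.18), and the SCR arrays themselves spread from 4.33 to 5.94.

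Wnt2 is a ligand of mesodermal and vascular tissues that acts through beta-catenin. It climbed to a peak at day 8 in both control lines and stayed at its ESC level in the KD-labelled line.
Wnt2 in the WT arrays read 4.14, 3.62 and 3.34 in ESCs, 6.85, 7.09 and 7.53 at day 4, 9.03, 9.55 and 9.29 at day 8, 7.74, 6.7 and 7.77 at day 12, and 4.48, 4.8 and 4.82 at day 16. Wnt2 in the SCR arrays read 3.91, 3.98 and 4.01 in ESCs, 7.51, 7.88 and 7.41 at day 4, 9.32, 9.43 and 9.03 at day 8, 5.87, 5.5 and 6.23 at day 12, and 4.45, 4.39 and 4.79 at day 16. Wnt2 in the KD-labelled arrays read 4.17, 3.61 and 3.54 in ESCs, 3.98, 3.86 and 3.86 at day 4, 3.59, 3.66 and 3.69 at day 8, 3.97, 4.38 and 3.85 at day 12, and 3.87, 4.22 and 3.82 at day 16. The KD-labelled arrays never exceeded 4.38, and from day 4 to day 16 they did not overlap with either control. At day 8 the difference was -5.61 (SE 0.23, adjusted p = 2.1e-21) from SCR and -5.64 (SE 0.23, adjusted p = 2.0e-21) from WT. Here too the KD-labelled level lay under 4.18, and the difference is not given as a fold. By day 16 it had narrowed to -0.57 and -0.73. Within the KD-labelled line no EB day was called against ESCs, with differences between -0.13 and 0.29. The controls parted at day 12, where SCR was lower than WT, at -1.54 (SE 0.23, adjusted p = 7.4e-06).

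Wnt3, the streak-inducing ligand, was high at a single stage.
Wnt3 in the WT arrays read 2.93, 3 and 2.71 in ESCs, 5.11, 5.82 and 6.19 at day 4, 2.93, 2.76 and 2.81 at day 8, 2.99, 2.72 and 2.71 at day 12, and 2.77, 3.08 and 2.84 at day 16. Wnt3 in the SCR arrays read 3.43, 3.19 and 2.99 in ESCs, 5.26, 5.59 and 5.14 at day 4, 2.98, 2.99 and 2.73 at day 8, 2.79, 2.73 and 2.92 at day 12, and 2.59, 2.8 and 2.86 at day 16. Wnt3 in the KD-labelled arrays read 2.94, 2.84 and 2.96 in ESCs, 3.02, 3.19 and 2.84 at day 4, 3.06, 2.87 and 2.92 at day 8, 2.98, 2.78 and 2.91 at day 12, and 2.95, 3.13 and 2.8 at day 16. The 6 control arrays of day 4, at 5.11 to 6.19, stood above every other array of the series, the highest of which read 3.43. Over their ESCs the day 4 level was up by 2.83 in WT and 2.13 in SCR. In the KD-labelled line the same step was 0.10 and was not called. Day 4 was the only stage with a called difference between the lines, at -2.31 (SE 0.16, adjusted p = 1.3e-14) from SCR and -2.69 (SE 0.16, adjusted p = 2.6e-16) from WT. A peak of the KD-labelled line on a day between the sampled stages was not measured.

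The markers of the primitive streak and early mesoderm moved with Wnt3. Of 5 measured genes (Mixl1, Eomes, Mesp1, Lhx1 and Evx1) all 5 were lower in the KD-labelled line at day 4 against each control. The median difference of these genes was -3.87 from SCR and -4.04 from WT. The streak gene T was listed as well and was not used here. The mean level of the 5 measured genes on an array was 8.99 to 10.21 in the 6 control arrays and 5.32 to 5.55 in the KD-labelled arrays. At day 8 the order was turned, with 3 of 5 higher and none lower in the KD-labelled line against each control, while Wnt3 was at 2.95 in it, 2.90 in SCR and 2.83 in WT. The part of these markers in the Wnt3 and Wnt5a differences was not tested.

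Wnt4, a ligand known from kidney and gonad development, had 2 high stages in the control lines.
Wnt4 in the WT arrays read 6.56, 6.06 and 6.01 in ESCs, 7.96, 7.78 and 7.71 at day 4, 6.36, 6.37 and 6.56 at day 8, 7.14, 7.26 and 6.96 at day 12, and 8.4, 8.6 and 8.53 at day 16. Wnt4 in the SCR arrays read 7.41, 6.48 and 7.28 in ESCs, 8.25, 8.04 and 7.63 at day 4, 6.68, 7.14 and 6.83 at day 8, 7.51, 7.57 and 7.75 at day 12, and 8.33, 8.43 and 8.56 at day 16. Wnt4 in the KD-labelled arrays read 5.67, 5.34 and 6.08 in ESCs, 6.09, 6.55 and 6.54 at day 4, 6.51, 6.55 and 6.55 at day 8, 6.65, 6.44 and 6.74 at day 12, and 6.61, 6.52 and 6.57 at day 16. Control levels were high at day 4 and day 16 with a dip at day 8 between them, and the KD-labelled EBs were nearly level, between 6.09 and 6.74. The lines therefore differed at day 4, with -1.58 (SE 0.18, adjusted p = 4.2e-09) from SCR, at day 12, with -1 (SE 0.18, adjusted p = 1.5e-05), and at day 16, where the difference was -1.87 (SE 0.18, adjusted p = 4.2e-11) from SCR and -1.94 (SE 0.18, adjusted p = 2.1e-11) from WT. At day 8 the difference was not called against SCR (-0.35, SE 0.18, adjusted p = 0.12) or WT (0.11, SE 0.18, adjusted p = 0.68). Over its own ESCs the KD-labelled line rose by 0.70 to 0.91 at each EB day. Its ESC level was already called lower against both controls (-1.36 and -0.51). The other Wnt4 probe set showed neither this rise nor a lower ESC level than WT. Its KD-labelled means were 5.18 in ESCs, beside 5.79 in SCR and 5.16 in WT, and 4.99 to 5.07 in EBs. It was called lower than SCR at every stage.

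Wnt5b, a close relative of Wnt5a, rose by a smaller amount.
Wnt5b in the WT arrays read 4.51, 3.99 and 4.4 in ESCs, 5.71, 6.14 and 6.36 at day 4, 5.04, 5.23 and 5.21 at day 8, 6.53, 5.68 and 6.62 at day 12, and 5.46, 5.51 and 5.7 at day 16. Wnt5b in the SCR arrays read 4.6, 4.14 and 4.29 in ESCs, 5.5, 5.7 and 5.59 at day 4, 5.65, 5.57 and 5.51 at day 8, 5.42, 5.45 and 5.82 at day 12, and 5.11, 5.35 and 4.9 at day 16. Wnt5b in the KD-labelled arrays read 4.4, 3.83 and 4.67 in ESCs, 4.46, 4.62 and 4.62 at day 4, 4.1, 4.41 and 4.21 at day 8, 4.52, 4.4 and 4.36 at day 12, and 4.61, 4.04 and 4.46 at day 16. The KD-labelled arrays did not leave the range of the ESC arrays, and they lay below both controls at every EB day with no overlap. The difference from SCR was largest at day 8, at -1.34 (SE 0.2, adjusted p = 3.7e-07), and that from WT at day 12, at -1.85 (SE 0.2, adjusted p = 4.2e-10). In ESCs it was called against neither control (-0.04 and 0.00, SE 0.20).

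A smaller group of ligands was higher in the KD-labelled line. Wnt6, a ligand of epithelia, was at 6.19 ± 0.07 (SD, n = 3) in KD-labelled ESCs against 5.11 ± 0.19 in SCR and 5.18 ± 0.41 in WT, and the KD-labelled arrays (6.11 to 6.25) lay above all 6 controls. The difference was 1.08 (SE 0.16, adjusted p = 2.2e-06) from SCR and 1.01 (SE 0.16, adjusted p = 1.4e-05) from WT. Wnt6 was also higher at day 8, by 0.93 and 0.60, but not at day 4, when both controls were at their EB maximum. Wnt8a, a ligand of the early posterior embryo, was called higher at days 4, 8 and 12 against both controls. At days 8 and 12 all 3 lines lay under the lower quartile of gene means (4.18), where a low level and no level cannot be told apart. The means there were 3.80 and 3.77 in the KD-labelled line, 3.25 and 3.17 in SCR and 3.38 and 3.31 in WT. At day 4 it read 4.65, 5.15 and 4.92 in the KD-labelled arrays, 3.81, 3.93 and 3.97 in SCR and 4.06, 4.22 and 4.77 in WT, so that the third WT array overlapped. The difference there was 1 (SE 0.15, adjusted p = 5.6e-07) from SCR and 0.56 (SE 0.15, adjusted p = 0.0024) from WT. Wnt7b, a ligand of lung and kidney epithelium, fell in both controls by day 8 and was not called against ESCs at any day in the KD-labelled EBs (arrays at 6.56 to 6.92), for differences of 0.75 from SCR and 0.62 from WT at day 8.

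Wnt9a and Wnt11 rose in all 3 lines. Wnt9a, a ligand of joint tissue, was called higher in the KD-labelled line at day 4 (0.73 from SCR) and lower at day 16 (-0.52). At day 12 it was -1.29 from WT with adjusted p = 5.6e-06, yet only -0.16 from SCR, since SCR was itself -1.13 from WT. Wnt11, a ligand of cell movement and heart formation, reached 7.38 ± 0.47 at day 12 in WT, 7.22 ± 0.21 in SCR and 7.05 ± 0.06 in the KD-labelled line (SD, n = 3). It was lower in the KD-labelled line at day 8, with differences of -0.68 and -0.74, and not called at days 12 and 16, where the KD-labelled line was above its own ESCs by 1.76 and 1.2.

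The other 9 Wnt genes were dim or flat. Wnt1, Wnt2b, Wnt3a, Wnt7a, Wnt8b, Wnt9b, Wnt10a, Wnt10b and Wnt16 had ranges of group means from 0.29 (Wnt1) to 0.86 (Wnt8b). With the chosen probe sets none differed by 2-fold between lines at any stage. A further Wnt8b probe set was -1.37 from SCR at day 16 (adjusted p = 0.00024 in limma). Its means there were 3.13 in the KD-labelled line, 4.5 in SCR and 3.28 in WT. The chosen probe sets of Wnt1 and Wnt7a were called against neither control at any stage, while a further Wnt7a probe set was called against SCR at all stages but day 4, at -0.47 in ESCs and 0.30 to 0.36 from day 8. Wnt3a, the ligand often added to cultures to activate beta-catenin, was at 5.11 ± 0.14 at day 4 in the KD-labelled line against 5.04 ± 0.25 in SCR and 4.96 ± 0.02 in WT, and its 1 call (0.40 above SCR at day 16) had no counterpart against WT. Over all 19 ligands, 5 were called lower (19.9% of all genes) and 2 higher (22.6%) at day 4 against SCR, with a median difference of 0.01.

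**Figure D2:**
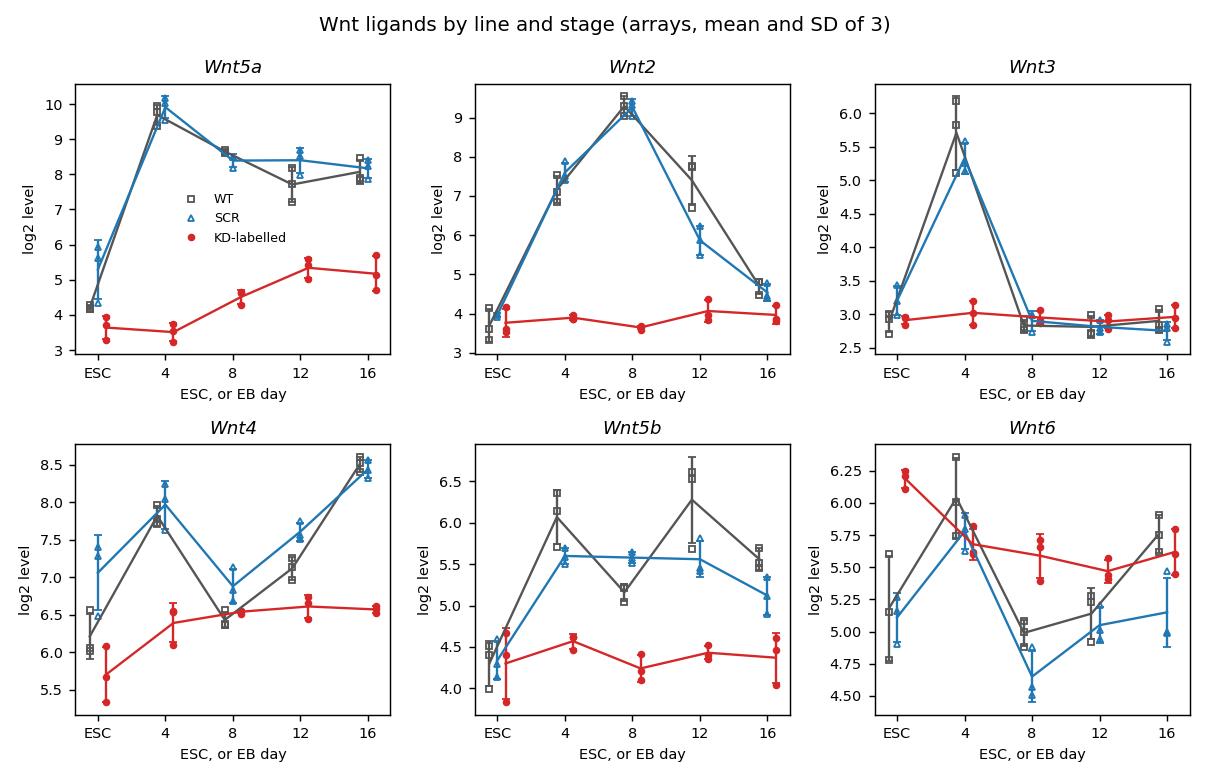
Panels give the log2 level of 6 Wnt ligands (vertical axis, own scale per panel) in ESCs and at EB days 4 to 16; points are single arrays, lines join means and bars are SD of 3 arrays. Wnt5a, Wnt2 and Wnt5b in the KD-labelled line run below both controls at every EB day, Wnt3 separates at day 4 alone (3.02 against 5.33 and 5.71), and Wnt6 starts higher in KD-labelled ESCs.

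Of the 10 Frizzled receptors, 5 (Fzd1, Fzd2, Fzd3, Fzd4 and Fzd8) rose in both controls by day 8 and were lower in the KD-labelled line at every EB day against both controls. Fzd1, which with Fzd2 and Fzd7 forms a subfamily, had the widest difference among them.
Fzd1 in the WT arrays read 5.16, 4.78 and 4.65 in ESCs, 7.38, 7.51 and 7.62 at day 4, 9.58, 9.6 and 9.66 at day 8, 9.78, 9.49 and 9.77 at day 12, and 10.11, 10.13 and 9.99 at day 16. Fzd1 in the SCR arrays read 6, 5.57 and 5.4 in ESCs, 7.84, 7.57 and 7.93 at day 4, 9.88, 9.62 and 10.13 at day 8, 9.99, 9.95 and 9.88 at day 12, and 10.05, 9.82 and 10.13 at day 16. Fzd1 in the KD-labelled arrays read 4.04, 4.65 and 5.07 in ESCs, 4.93, 4.67 and 4.53 at day 4, 5.27, 5.29 and 5 at day 8, 5.64, 5.52 and 5.93 at day 12, and 5.26, 4.84 and 5.96 at day 16. From day 8 the control arrays all read 9.49 or more, and the highest of the KD-labelled arrays read 5.96. At day 8 the KD-labelled line was -4.69 (SE 0.21, adjusted p = 1.6e-20) from SCR, or 25.8 times lower, and -4.43 (SE 0.21, adjusted p = 1.0e-19) from WT. The gap was as wide at day 16, at -4.65 and -4.72. The KD-labelled line did show a called rise over its own ESCs, of 1.11 at day 12, beside 4.82 in WT and 4.28 in SCR. The other Fzd1 probe set did not show this rise, with KD-labelled means of 3.37 in ESCs and 3.32 at day 12. It was not called against SCR at day 4 (-0.17, adjusted p = 0.64 in limma). At day 8 it was called lower, at -1.04, as it was at days 12 and 16.

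Fzd3, a receptor of axon guidance and planar cell polarity, was lower in the KD-labelled line at all stages, ESCs included.
Fzd3 in the WT arrays read 6.32, 6.12 and 5.77 in ESCs, 8, 8.5 and 8.54 at day 4, 8.53, 8.19 and 8.2 at day 8, 8.4, 9.01 and 8.47 at day 12, and 8.6, 9.17 and 8.86 at day 16. Fzd3 in the SCR arrays read 7.15, 6.44 and 6.77 in ESCs, 8.85, 8.99 and 9.01 at day 4, 8.86, 8.84 and 8.93 at day 8, 9.17, 9.02 and 9.09 at day 12, and 8.75, 9.32 and 8.92 at day 16. Fzd3 in the KD-labelled arrays read 4.91, 4.45 and 5.44 in ESCs, 5.68, 5.59 and 5.59 at day 4, 5.68, 6.07 and 5.64 at day 8, 5.98, 6.03 and 6.41 at day 12, and 6.04, 6.23 and 6.45 at day 16. No KD-labelled array overlapped with a control array of its stage. The difference from SCR was -1.85 (SE 0.2, adjusted p = 7.0e-09) in ESCs and -3.33 (SE 0.2, adjusted p = 3.6e-16) at day 4. Against WT it was -1.14 (SE 0.2, adjusted p = 8.0e-05) in ESCs and -2.73 (SE 0.2, adjusted p = 1.0e-13) at day 4. With the chosen probe set the KD-labelled level also rose, by 1.31 from ESCs to day 16, beside 2.81 in WT and 2.21 in SCR. None of the 5 other Fzd3 probe sets showed a KD-labelled rise of this kind. Their KD-labelled means in ESCs and at day 16 were 4.94 and 4.67, 4.97 and 5.07, 5.35 and 5.15, 3.23 and 3.24, and 3.38 and 3.19.

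Fzd4, a receptor for Norrin as well as Wnt ligands and known from blood vessel growth, peaked at day 8 in the controls.
Fzd4 in the WT arrays read 5.33, 5.15 and 5.22 in ESCs, 7.04, 6.62 and 6.18 at day 4, 8.29, 8.54 and 8.2 at day 8, 7.08, 6.95 and 6.93 at day 12, and 6.66, 6.2 and 6.4 at day 16. Fzd4 in the SCR arrays read 5.46, 5.6 and 5.01 in ESCs, 6.72, 7.21 and 7.14 at day 4, 8.17, 8.34 and 7.98 at day 8, 6.9, 7.33 and 7.27 at day 12, and 6.78, 7.01 and 6.96 at day 16. Fzd4 in the KD-labelled arrays read 5.17, 4.93 and 4.64 in ESCs, 5.12, 4.95 and 5.08 at day 4, 5.26, 5.07 and 5.13 at day 8, 5.79, 5.71 and 5.86 at day 12, and 5.55, 5.56 and 5.76 at day 16. KD-labelled EBs did not overlap with controls at any EB day. The difference at day 8 was -3.01 (SE 0.17, adjusted p = 1.1e-17) from SCR and -3.19 (SE 0.17, adjusted p = 2.3e-18) from WT, and it had shrunk to -1.29 and -0.8 at day 16. At day 8 the mean of the endothelial markers Kdr, Cdh5, Pecam1, Emcn and Tek was 7.56 to 8.16 in the controls. It was 4.89 to 5.06 in the KD-labelled arrays, with 4 of 5 genes lower and 1 (Pecam1) higher against each control. At day 4 the marker mean was 5.02 in WT and 4.97 in SCR, where Fzd4 was at 6.61 and 7.02. From day 8 to days 12 and 16 the marker mean went from 7.97 to 6.79 and 6.75 in WT. In SCR it stayed at 7.68, 7.64 and 7.46 while Fzd4 went from 8.16 to 7.17 and 6.92. The part of these markers in the Fzd4 difference was not tested.

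Fzd2, which binds Wnt5a among other ligands, rose in the controls to a maximum at day 8.
Fzd2 in the WT arrays read 7.14, 7.13 and 5.97 in ESCs, 8.21, 8.36 and 8.56 at day 4, 9.72, 10.11 and 10.02 at day 8, 9.23, 9.37 and 9.86 at day 12, and 9.05, 8.81 and 8.96 at day 16. Fzd2 in the SCR arrays read 8.08, 7.23 and 7.77 in ESCs, 8.56, 8.82 and 8.71 at day 4, 10, 10.33 and 9.91 at day 8, 9.3, 9.5 and 9.74 at day 12, and 8.84, 8.88 and 8.6 at day 16. Fzd2 in the KD-labelled arrays read 6.57, 6.42 and 6.71 in ESCs, 6.88, 7.11 and 6.86 at day 4, 7.05, 7.07 and 7.32 at day 8, 6.9, 6.74 and 7.34 at day 12, and 7.05, 6.87 and 7.18 at day 16. In the KD-labelled line the level moved little, and only day 8 was called against its ESCs (0.58). The difference from SCR was -2.93 (SE 0.22, adjusted p = 2.9e-14) and from WT -2.8 (SE 0.22, adjusted p = 1.1e-13) at day 8. In ESCs Fzd2 was called lower against SCR (-1.13) but not against WT (-0.18, adjusted p = 0.65), and SCR ESCs were above WT ESCs by 0.95. Fzd8, a relative of Fzd5, also had its control maximum at day 8. It was 5.27 ± 0.07 at day 8 in the KD-labelled line, 6.74 ± 0.12 in SCR and 6.71 ± 0.07 in WT (SD, n = 3), for a difference of -1.47 (SE 0.13, adjusted p = 1.4e-12) from SCR.

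Fzd5, a receptor present in ESCs and early endoderm, ran the other way. With the chosen probe set it fell by 2.72 (WT) and 2.67 (SCR) from ESCs to day 8 and then came back. The KD-labelled arrays fell by 1.62 at day 4 and read 8.75, 8.84 and 8.65 at day 8, against 6.95, 5.82 and 6.74 in SCR and 6.95, 6.69 and 6.65 in WT. All 3 were above all 6 controls, with a difference of 2.24 (SE 0.25, adjusted p = 9.2e-10) from SCR and 1.98 (SE 0.25, adjusted p = 1.5e-08) from WT. With this probe set the lines were not called apart at day 4 and day 16. The other Fzd5 probe set gave a different course: it was called higher than SCR at every stage, by 0.74 in ESCs, 1.28 at day 4, 1.42 at day 8, 1.51 at day 12 and 1.24 at day 16. Its KD-labelled means went from 7.81 in ESCs to 6 at day 4 and 6.11 at day 8, with no return by day 16 (6.20). The direction at days 8 and 12 was therefore the same with both probe sets, and the recovery was seen with 1 of them.

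Fzd6 and Fzd7 were called at other stages. Fzd6, which acts with Fzd3 in tissue polarity, was lower in KD-labelled ESCs, at 5.86, 5.59 and 5.65 against 6.99 to 7.43 in SCR and 6.58 to 6.86 in WT. That gave -1.44 (SE 0.15, adjusted p = 1.7e-09) from SCR and -1.04 (SE 0.15, adjusted p = 2.3e-06) from WT. At days 8 and 12 it was called against neither control. Fzd7, a receptor expressed in pluripotent cells, was lower at day 4 (-0.55 from SCR and -0.50 from WT) and higher at day 16 (0.94 and 0.77). Its group means ran from 9.26 to 10.46. Fzd9 and Fzd10, related to Fzd4, moved by less than 2-fold between lines at every stage.

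Over the 10 receptors, 8 were called lower than SCR at day 4 (19.9% of all genes) and 1 higher (22.6%). The median difference was -0.78 beside 0.03 for all genes. Against WT the day 4 count was 8 lower (19.9%) and none higher (19.2%), with a median of -0.76. At day 8 the count was 5 lower (24.7%) and 1 higher (28%) against SCR, with a median of -0.82. Those lower at day 4 were Fzd1, Fzd2, Fzd3, Fzd4, Fzd6, Fzd7, Fzd8 and Fzd10, and those lower at day 8 were Fzd1, Fzd2, Fzd3, Fzd4 and Fzd8.

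**Figure D3:**
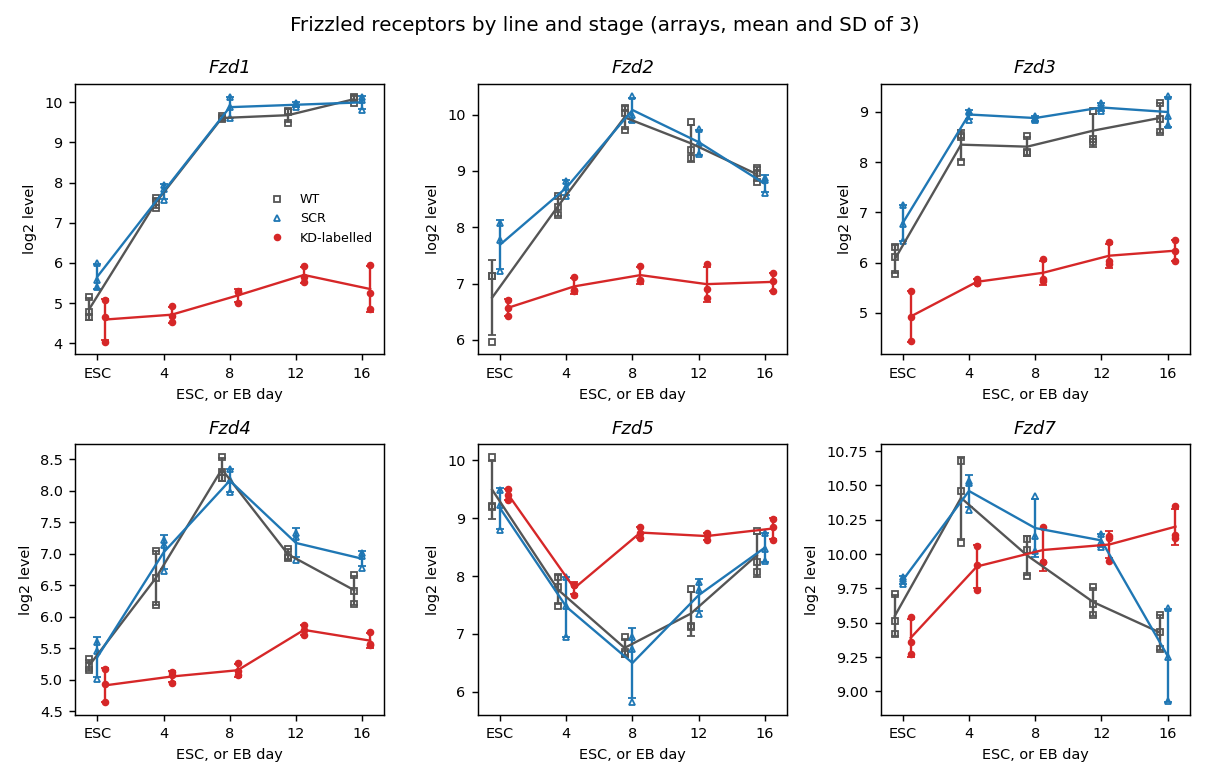
Panels give the log2 level of 6 Frizzled receptors (vertical axis, own scale per panel) by stage; points are single arrays, lines join means and bars are SD of 3 arrays. Fzd1, Fzd2, Fzd3 and Fzd4 in the KD-labelled line lie under both controls at every EB day, Fzd5 lies above them at days 8 and 12 (8.75 and 8.69), and Fzd7 spans a narrow scale.

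Dkk2 showed the sharpest contrast among the antagonists. It encodes a Dickkopf protein that binds Lrp5 and Lrp6, and it was at the bottom of its range until day 4 in every line.
Dkk2 in the WT arrays read 3, 3.14 and 3.18 in ESCs, 3.28, 3.63 and 3.38 at day 4, 9, 9.79 and 8.91 at day 8, 9.14, 8.53 and 9.76 at day 12, and 8.6, 8.64 and 9.1 at day 16. Dkk2 in the SCR arrays read 3.27, 3.17 and 3.45 in ESCs, 3.75, 3.51 and 3.35 at day 4, 9.19, 8.5 and 7.76 at day 8, 7.51, 7.46 and 8 at day 12, and 7.59, 7.89 and 7.79 at day 16. Dkk2 in the KD-labelled arrays read 3.31, 2.94 and 3.42 in ESCs, 3.17, 3.37 and 3.33 at day 4, 3.35, 3.33 and 3.22 at day 8, 3.1, 3.19 and 3.1 at day 12, and 3.22, 3.29 and 3.35 at day 16. From day 8 all control arrays read 7.46 or more, while no KD-labelled array of any stage passed 3.42. The difference at day 8 was -5.18 (SE 0.24, adjusted p = 1.3e-19) from SCR and -5.93 (SE 0.24, adjusted p = 3.3e-21) from WT, with the KD-labelled level again under 4.18. In the KD-labelled line no EB day was called against ESCs (-0.09 to 0.08). The controls also parted: SCR was -1.49 from WT at day 12 (adjusted p = 3.5e-05) and -1.02 at day 16, gaps that are small beside those of the KD-labelled line.

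Dkk1, a Dickkopf antagonist needed for head formation, was called in opposite directions at different stages.
Dkk1 in the WT arrays read 3.89, 4.07 and 4.27 in ESCs, 8.72, 9.25 and 9.17 at day 4, 6.16, 5.42 and 6.3 at day 8, 4.98, 5.47 and 4.89 at day 12, and 5.57, 5.16 and 6.05 at day 16. Dkk1 in the SCR arrays read 3.47, 4.11 and 4.03 in ESCs, 9.41, 9.38 and 9.28 at day 4, 6.73, 7.57 and 7.95 at day 8, 6.03, 6.51 and 6.06 at day 12, and 5.67, 4.78 and 3.83 at day 16. Dkk1 in the KD-labelled arrays read 4.81, 4.89 and 4.58 in ESCs, 5.88, 5.83 and 6.04 at day 4, 8, 8.28 and 8.56 at day 8, 8.52, 8.48 and 8.43 at day 12, and 7.43, 7.4 and 7.15 at day 16. Control levels peaked at day 4, at 8.72 to 9.41, and then dropped. KD-labelled levels reached 5.83 to 6.04 at day 4 and had their highest mean at day 12, at 8.43 to 8.52. The KD-labelled line was thus lower at day 4, at -3.44 (SE 0.29, adjusted p = 2.7e-12) from SCR and -3.13 (SE 0.29, adjusted p = 3.6e-11) from WT. It was higher at day 12, by 2.28 (SE 0.29, adjusted p = 2.5e-08) from SCR and 3.36 (SE 0.29, adjusted p = 3.1e-12) from WT, and again at day 16, by 2.57 and 1.73. Arrays of the KD-labelled line and the controls did not overlap at any stage. In ESCs the KD-labelled arrays (4.58 to 4.89) lay above the controls (3.47 to 4.27), which was called against SCR (0.89, adjusted p = 0.023) and not against WT (0.68, adjusted p = 0.11).

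The mean level of the streak markers was also above the controls late in the KD-labelled line. It was 5.77 to 6.27 on the KD-labelled arrays of days 8, 12 and 16 and 4.48 to 5.33 on the control arrays of those days. Against SCR 3, 2 and 4 of 5 genes were called higher at these days, and against WT 3 at each. None was lower, and 2 were higher by 2-fold in each comparison. At day 12 Eomes was at 8.48 against 5.67 in SCR and 4.92 in WT, and Lhx1 at 7.64 against 4.89 and 4.44. Mixl1 was at 5.24 against 4.75 and 4.40. The part of these markers in the Dkk1 levels was not tested.

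Dkk3, a divergent family member that does not bind Lrp5 or Lrp6 in the same way, rose from day 8 in the controls only. At day 8 its arrays read 7.59, 8.11 and 8.06 in WT, 7.14, 6.91 and 6.61 in SCR and 5.16, 4.88 and 5.16 in the KD-labelled line. The groups did not overlap, with differences of -1.82 (SE 0.19, adjusted p = 2.6e-10) from SCR and -2.85 (SE 0.19, adjusted p = 2.6e-15) from WT, and they stayed apart by 1.77 or more log2 units at days 12 and 16. SCR was lower than WT for Dkk3 at day 8 (-1.03) and day 12 (-1.11). Dkk4 was dim everywhere, with group means from 3.36 to 3.72, and was called against neither control at any stage.

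Sfrp2, a Wnt-binding antagonist of mesenchyme and neural tissue, changed sides between day 4 and day 8.
Sfrp2 in the WT arrays read 7.62, 7.9 and 7.19 in ESCs, 6.67, 6.78 and 7.09 at day 4, 7.36, 7.49 and 7.45 at day 8, 8.39, 8.83 and 8.56 at day 12, and 9.03, 9.23 and 8.84 at day 16. Sfrp2 in the SCR arrays read 8.19, 7.85 and 8.04 in ESCs, 6.04, 6.5 and 6.66 at day 4, 8.39, 8.06 and 7.72 at day 8, 9.39, 9.34 and 9.16 at day 12, and 9.24, 9.32 and 8.61 at day 16. Sfrp2 in the KD-labelled arrays read 6.51, 6.54 and 6.79 in ESCs, 8.27, 7.68 and 7.9 at day 4, 6.54, 6.56 and 6.57 at day 8, 6.5, 6.66 and 6.87 at day 12, and 6.92, 6.92 and 6.96 at day 16. At day 4 the controls were at their lowest and the KD-labelled line at its highest, for differences of 1.55 (SE 0.18, adjusted p = 6.4e-09) from SCR and 1.1 (SE 0.18, adjusted p = 5.4e-06) from WT. At day 12 the order was turned, with -2.62 (SE 0.18, adjusted p = 8.5e-15) from SCR and -1.92 (SE 0.18, adjusted p = 3.3e-11) from WT. The KD-labelled and control arrays did not overlap at any of the 5 stages.

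Sfrp1, of the same subfamily as Sfrp2, rose in the controls to a maximum at day 12.
Sfrp1 in the WT arrays read 6.75, 6.9 and 7.65 in ESCs, 7.05, 7.99 and 8.22 at day 4, 9.72, 10 and 9.54 at day 8, 10.37, 10.7 and 10.76 at day 12, and 10.3, 9.86 and 10.08 at day 16. Sfrp1 in the SCR arrays read 7.11, 7.18 and 7.48 in ESCs, 8.31, 8.69 and 8.7 at day 4, 10.07, 9.9 and 9.99 at day 8, 10.28, 10.56 and 10.47 at day 12, and 9.91, 9.94 and 9.76 at day 16. Sfrp1 in the KD-labelled arrays read 7.28, 7.4 and 7.34 in ESCs, 6.53, 6.13 and 6.2 at day 4, 7.42, 7.64 and 7.3 at day 8, 7.81, 7.83 and 7.99 at day 12, and 7.8, 7.81 and 8.21 at day 16. The ESC arrays of the 3 lines overlapped. At day 4 the KD-labelled line fell below its own ESCs by 1.05 while both controls rose, and it stayed below all 6 control arrays at every EB day. The widest difference from SCR was at day 12, at -2.56 (SE 0.2, adjusted p = 2.5e-13), where it was -2.73 (SE 0.2, adjusted p = 4.9e-14) from WT.

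Sfrp4, of another Sfrp subfamily, was higher in the KD-labelled line at every EB day.
Sfrp4 in the WT arrays read 6.53, 6.21 and 6.38 in ESCs, 5.56, 5.22 and 5.39 at day 4, 4.99, 5.12 and 5.05 at day 8, 5.35, 5.04 and 5.38 at day 12, and 5.21, 5.18 and 5.32 at day 16. Sfrp4 in the SCR arrays read 6.33, 6.12 and 6.25 in ESCs, 5.46, 5.52 and 5.19 at day 4, 4.8, 5.08 and 5.31 at day 8, 5.41, 4.85 and 5.17 at day 12, and 5.09, 5.22 and 5.02 at day 16. Sfrp4 in the KD-labelled arrays read 6.15, 6.05 and 6.28 in ESCs, 5.99, 6.08 and 6.35 at day 4, 6.08, 6.37 and 6.12 at day 8, 5.76, 5.72 and 5.95 at day 12, and 6.14, 6.07 and 5.87 at day 16. Control levels fell by 0.84 or more after the ESC stage, and the KD-labelled level was called lower than its ESCs at day 12 alone (-0.35). At each EB day the KD-labelled arrays lay above all 6 controls, most at day 8, by 1.13 (SE 0.13, adjusted p = 4.1e-09) from SCR and 1.14 (SE 0.13, adjusted p = 3.7e-09) from WT. The chosen Sfrp5 probe set stayed between 5.05 and 5.31 in all group means and was called against neither control at any stage. The other Sfrp5 probe set was called lower than SCR at day 8 (4.43 against 5.41, -0.98, adjusted p = 3.5e-05 in limma).

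Markers of mesenchyme were far lower in the KD-labelled line from day 8, as were Dkk2 and Dkk3. Of 8 genes (Col1a1, Col1a2, Col3a1, Postn, Lum, Dcn, Thy1 and Pdgfrb) 7 were lower and 1 (Thy1) was higher in the KD-labelled line at day 8 against each control, with a median difference of -6.77 from SCR and -7.45 from WT. Their mean level was 10.63 to 11.41 in the day 8 control arrays and 4.61 to 4.79 in the KD-labelled arrays, beside 4.60 to 4.70 in KD-labelled ESCs. Cardiac muscle genes (Tnnt2, Myh6, Actc1, Nkx2-5 and Myl2) were lower in 5 of 5 against SCR and in 3 of 5 against WT at day 8, and here the controls themselves differed, at 9.71 to 11.43 in SCR and 6.14 to 7.75 in WT. At day 4 the mesenchyme genes had a median difference of -0.20 from SCR, with 2 higher and 4 lower. Of these, 1 was higher and 3 were lower by 2-fold. Fzd1 (-3.07), Fzd3 (-3.33), Fzd4 (-1.97) and Sfrp1 (-2.28) were lower than SCR at that day and Sfrp2 (1.55) was higher. The part of these markers in the differences of the members, at day 4 or later, was not tested.

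Genes marking other cell types moved less evenly. At day 8, 5 of 7 endoderm genes (Gata4, Gata6, Sox17, Foxa2, Afp, Ttr and Apoa1) were lower and 1 was higher in the KD-labelled line against each control. Of 6 neural genes (Pax6, Sox1, Nes, Fabp7, Map2 and Tubb3) 1 was lower and 1 higher at day 8, and 5 were lower and 1 higher at day 16. Of 4 trophoblast genes (Cdx2, Elf5, Hand1 and Krt8) 2 were lower at day 8 against each control. The pluripotency genes were higher in 7 of 7 at day 8 against each control, with a median difference of 6.82 from SCR. Their part in the Fzd5, Wnt7b and Sfrp4 levels, which at day 8 were nearer to the ESC level in the KD-labelled line than in the controls, was not tested.

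**Figure D4:**
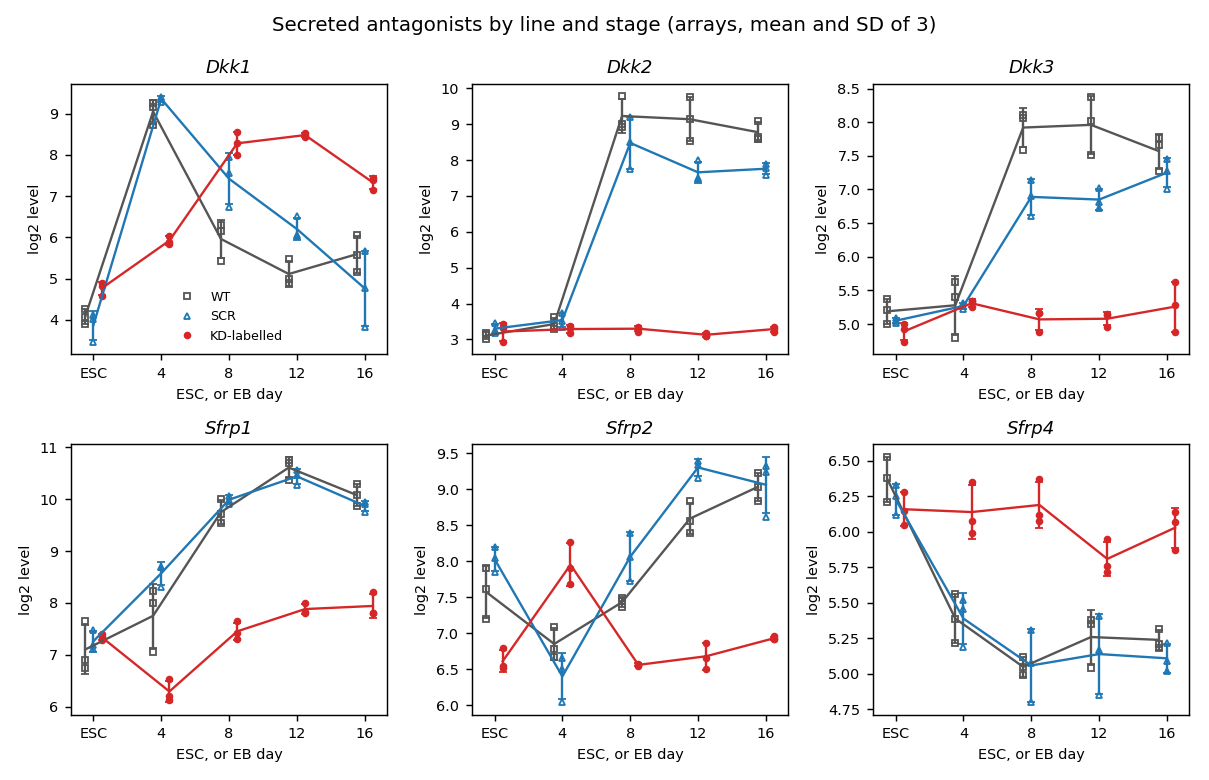
Panels give the log2 level of 6 secreted antagonists (vertical axis, own scale per panel) by stage; points are single arrays, lines join means and bars are SD of 3 arrays. Dkk1 lines cross between day 4 and day 8, Dkk2 in the KD-labelled line stays near 3.3 while both controls exceed 7.6 from day 8, and Sfrp4 stays above both controls in KD-labelled EBs.

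Several members showed these differences at once, and the time at which each appeared differed. Wnt3, Wnt5a and Dkk1, highest at day 4 in both controls, had their widest difference from SCR there. Other members highest at day 4 in both controls had it elsewhere, such as Fzd7 at day 16 (0.94) and Wnt6 in ESCs (1.08). Dkk2 and Dkk3, which rose at day 8, were not called at day 4. A moderated F test of whether the difference from SCR changed with stage was passed by 25 of 37 members and by 58.5% of all genes. Against SCR, 8 of 37 members were called at all 5 stages, as were 12.2% of all genes: Wnt5a, Fzd1, Fzd2, Fzd3, Fzd4, Fzd8, Dkk1 and Sfrp2. With the chosen probe sets, 5 were called against SCR at no stage, as were 16.2% of all genes: Wnt1, Wnt7a, Wnt16, Dkk4 and Sfrp5.

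**Figure D5:**
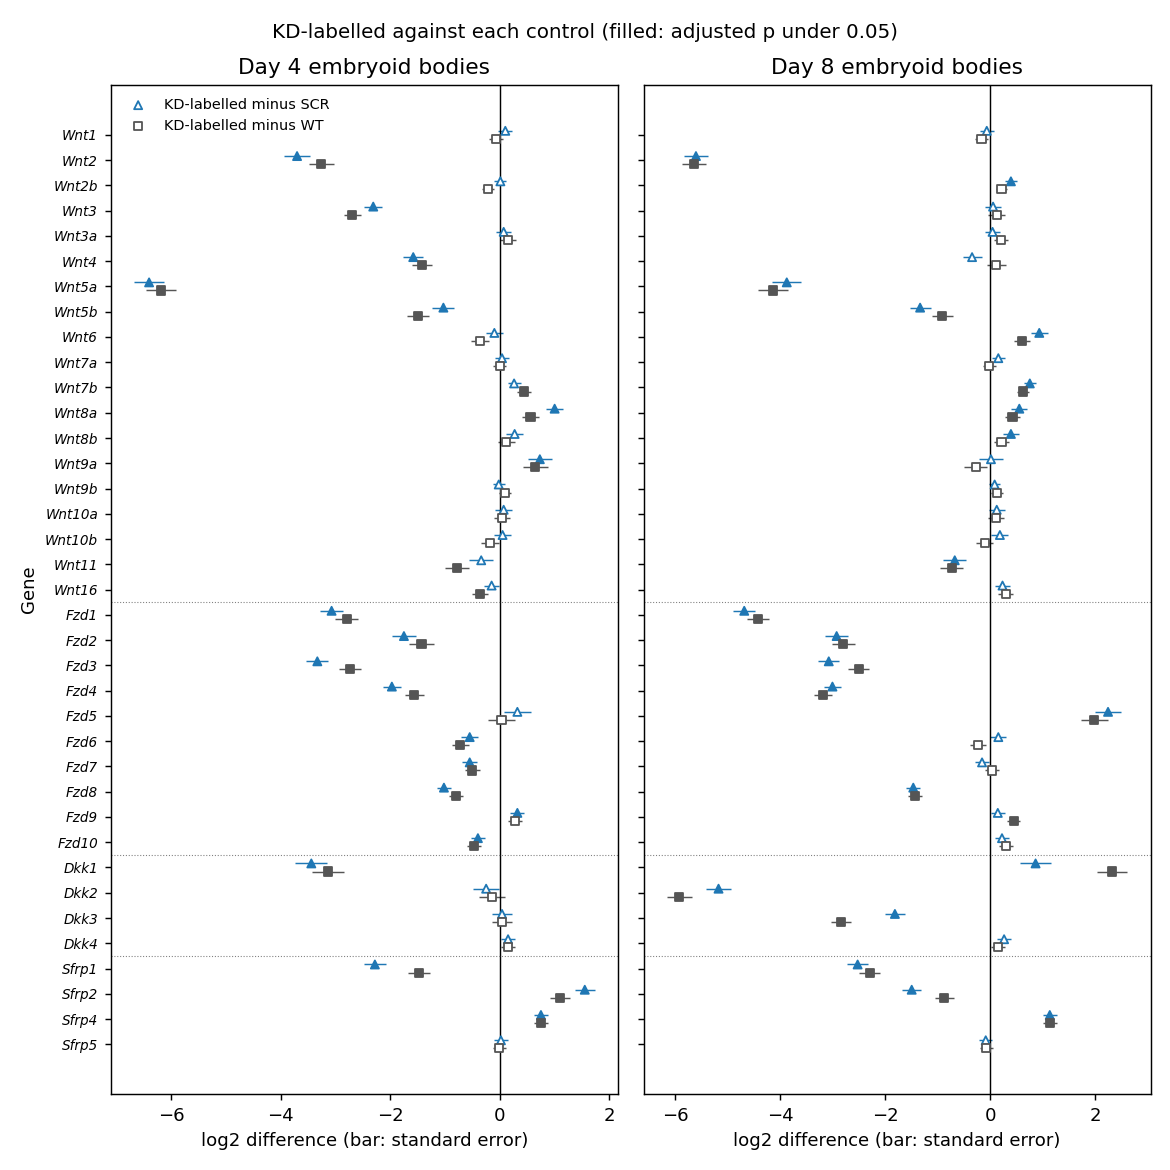
For all 37 members the horizontal axis gives the log2 difference of the KD-labelled line from SCR (triangles) and WT (squares) at day 4 and day 8, bars are standard errors and filled symbols have adjusted p under 0.05. At day 4 Wnt5a lies farthest left (-6.40 from SCR); at day 8 Wnt2, Dkk2 and Fzd1 do, and Fzd5 lies farthest right among the differences from SCR (2.24).

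Read against both controls together, the KD-labelled arrays stood outside all 6 control arrays of their stage in many members. At day 4, 15 members lay below and 5 above, as did 19.6% and 20% of all genes. At day 8, 13 lay below and 7 above (22.6% and 25.7% of all genes). In ESCs 4 lay below, namely Wnt5a, Fzd3, Fzd6 and Sfrp2, and 3 above, namely Wnt6, Wnt10b and Dkk1 (8.32% and 9.64%). At day 12 the counts were 13 below and 6 above (21.8% and 26.6%), and at day 16 they were 15 below and 5 above (24% and 34%).

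Further probe sets of the same genes were used as a check that the arrays themselves allow. The members had 73 probe sets in all, and 22 members had more than 1. In 130 pairs of a further probe set and a stage in which the chosen probe set was called against SCR, the further one was called in the same direction in 92, in the opposite direction in 2 and not called in 36. In the other 50 pairs the chosen probe set was not called, and in 9 of them the further one was: 3 of Fzd5, 4 of Wnt7a, 1 of Wnt4 (day 8, -0.83) and 1 of Sfrp5 (day 8, -0.98). The opposite pairs were a Wnt9a probe set at day 4 and a Wnt8b probe set at day 16, and both genes are uncertain at those stages. For Dkk1 the other probe set gave -3.85 at day 4 and 2.47 at day 12 against SCR, and for Wnt5a the 3 others gave -5.12, -3.90 and -2.24 at day 4. Fzd3 had 5 others, all called lower at day 4, at -0.36 to -1.79, where the chosen set gave -3.33.

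The rest of the Wnt pathway was read from a list of 51 measured genes, chosen by their role. Against SCR 11 were higher and 20 lower at day 4, where 22.6% of all genes were higher and 19.9% lower. Day 8 had 9 higher (28% of all genes) and 21 lower (24.7%), the day 12 counts were 10 (31%) and 22 (24.6%), and those at day 16 were 13 (39.8%) and 21 (26.8%). In ESCs 4 were higher (12.3%) and 9 lower (11.3%). Their median difference from SCR was 0.02 at day 4 and -0.19 at day 8, beside 0.03 and 0.07 for all genes. Against WT 8 were higher (19.2%) and 20 lower (19.9%) at day 4, and 8 higher (26%) and 19 lower (23.9%) at day 8. The median difference from WT was -0.09 at day 4 and -0.19 at day 8, beside -0.01 and 0.05 for all genes. Kremen2 and Tcf7 were listed and not used here.

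The genes for sending the ligands differed in opposite directions. Wls carries Wnt proteins to the cell surface.
Wls in the WT arrays read 6.07, 4.27 and 5.58 in ESCs, 10.25, 10.31 and 10.26 at day 4, 10.33, 10.32 and 10.46 at day 8, 10.57, 10.51 and 10.55 at day 12, and 10.26, 10.36 and 10.4 at day 16. Wls in the SCR arrays read 6.72, 5.12 and 7.12 in ESCs, 10.58, 10.58 and 10.62 at day 4, 10.39, 9.93 and 10.11 at day 8, 10.17, 10.26 and 10.18 at day 12, and 10.29, 9.93 and 10.05 at day 16. Wls in the KD-labelled arrays read 4.46, 3.92 and 4.42 in ESCs, 5.8, 6 and 5.96 at day 4, 7.13, 6.93 and 7.18 at day 8, 7.2, 7.27 and 7.51 at day 12, and 6.97, 6.92 and 7.27 at day 16. All control EB arrays read 9.93 or more and all KD-labelled EB arrays read 7.51 or less. At day 4 Wls was -4.67 (SE 0.3, adjusted p = 1.1e-15) from SCR and -4.35 (SE 0.3, adjusted p = 9.6e-15) from WT, and it was called lower at every stage against both controls. Porcn, the enzyme that adds the lipid to Wnt proteins and a gene chosen after its values were seen, was higher in KD-labelled EBs at every day against both controls, at 7.83, 7.71 and 7.76 on day 12 against 5.09 to 5.84 in SCR and 5.37 to 5.54 in WT, a difference of 2.22 (SE 0.22, adjusted p = 4.3e-11) from SCR.

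Other genes of the list with wide differences were secreted or membrane agonists and antagonists. Rspo3, a secreted enhancer of Wnt signalling, read 4.19, 4.1 and 4.4 at day 4 in the KD-labelled arrays, 9.22, 9.32 and 9.32 in SCR and 8.99, 9.24 and 9.24 in WT. Its difference was -5.06 (SE 0.2, adjusted p = 2.9e-21) from SCR and -4.93 (SE 0.2, adjusted p = 9.0e-21) from WT, and it was lower at all EB days. Lgr5, a receptor for such enhancers and a known target of the pathway, was -4.43 (SE 0.23, adjusted p = 5.6e-18) from SCR at day 4 and was not called at day 8 (-0.12). The groups did not overlap for either gene at day 4. Frzb, a Wnt-binding antagonist related to the Sfrp genes, was -4.83 (SE 0.3, adjusted p = 3.5e-16) from SCR at day 4 and 0.97 (SE 0.3, adjusted p = 0.0046) at day 16. Apcdd1, a membrane inhibitor, was higher in KD-labelled ESCs (1.82, SE 0.23, adjusted p = 1.4e-07) and lower at day 4 (-4.51, SE 0.23, adjusted p = 3.3e-18). Gpc3, a cell surface proteoglycan, was -3.92 (SE 0.17, adjusted p = 1.5e-20) from SCR at day 4, and Cer1, an antagonist of the early endoderm, was -2.65 (SE 0.21, adjusted p = 2.5e-13). Wif1, another Wnt-binding antagonist, was not called at days 4 and 8 and was -2.99 (SE 0.27, adjusted p = 3.7e-12) from SCR at day 16. Cer1 was higher than SCR at day 16, at 1.07 (SE 0.21, adjusted p = 2.6e-05), and was called higher from day 8 against both controls.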

How the data were processed

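The values are the log2 levels that the authors deposited for 45037 probe sets on 45 arrays, with 2 decimals. RMA, Partek 6.6 and the Affymetrix Expression Console are named in the submitters' processing notes. Their roles and order are not given in the sources used here. Probe sets were named from the platform annotation: 34945 had 1 gene symbol, 932 had several and 9160 had no listed gene. Symbols were updated through the RefSeq gene table, and the 204 probe sets whose gene it did not list kept the annotated symbol. Each of the 18193 genes was read from its probe set with the highest mean over 45 arrays. Groups and array numbers came from the source labels. Limma 3.58.1 (R 4.3.3, data.table, version 1.17.8) fitted 15 group means with 30 residual degrees of freedom, and p-values were adjusted over all genes (Benjamini-Hochberg, threshold 0.05). The script was tested on simulated data. Array numbers paired the lines in 3 of 27 comparisons (correlations of -0.3 to 0.48) and were not used as a block. Given array by array were the called members with the largest KD minus SCR difference at any stage, up to 5 Wnt, 4 Fzd, 2 Dkk and 3 Sfrp genes, and named beside them were members called with a 2-fold difference. Other members are given by counts, range or single values. Members and lists were chosen with earlier results of these data known. Promoter windows were RefSeq's (GRCm38.p6). Alternatives were no dim genes, centred or cyclic loess scaling, an intensity trend, the mean of all probe sets, 2 groups alone, the array number as a block and each array left out.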

Additional observations from a re-analysis of the deposited data

Results flagged for a closer look

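For 25 members the difference between the KD-labelled line and SCR changed with stage by limma's moderated F test, adjusted over all genes. The values that follow are those of the 14 members given array by array and of Wnt9a, Fzd7 and Fzd10, which were called higher at some stage and lower at another. Among ligands the adjusted p was 9.7e-17 for Wnt2, 8.9e-12 for Wnt3, 4.8e-05 for Wnt4, 3.5e-11 for Wnt5a, 0.0014 for Wnt5b and 0.0021 for Wnt9a. Among receptors it was 2.9e-13 for Fzd1, 2.7e-05 for Fzd2, 0.00043 for Fzd3, 2.5e-10 for Fzd4, 2e-07 for Fzd7 and 0.0037 for Fzd10. Among antagonists it was 2.3e-14 for Dkk1, 3.9e-17 for Dkk2, 9.4e-10 for Sfrp1, 2.9e-15 for Sfrp2 and 1.7e-05 for Sfrp4. Groups of 3 arrays were too small to test for outlying arrays.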

How the results depend on the processing

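Of 415 recomputed counts of called members, 372 stayed within 1.5 times the value given. For each of 14 members, 1 difference was recomputed, that from SCR at its widest stage, and all 211 values kept their direction and call. Differences at other stages were not recomputed in this way, and some were not called with a further probe set, such as Wnt5a at day 16 (-0.21). The split of higher and lower members at day 16 turned with centring, as given with that count. Without dim genes 14 members were tested and the counts were lower by construction. They were 11, 11, 11 and 12 for the KD-labelled line against SCR at days 4, 8, 12 and 16, and 13, 11, 12 and 11 against WT. For SCR against WT they were 3 at day 12 and 0 at day 16. Against ESCs they were 14, 12, 13 and 13 in WT, 12, 11, 12 and 14 in SCR, and 8, 10 and 11 in the KD-labelled line at days 4, 8 and 12, and 13 passed the F test. With the mean of all probe sets of a gene the count was 3 for the KD-labelled line against WT in ESCs. It was 2, 0 and 4 for SCR against WT in ESCs and at days 4 and 16, and 8 and 9 in the KD-labelled line against its ESCs at days 4 and 8. With only the 2 groups compared, SCR against WT gave 0 in ESCs, 0 at day 4 and 1 at day 16. The causes of these shifts, apart from fewer genes tested, were not tested.

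Leaving out 1 array at a time, the count of members called against SCR was 9 to 12 in ESCs for the KD-labelled line. For SCR against WT it was 1 to 7 in ESCs, 0 to 1 at day 4, 4 to 10 at day 12 and 1 to 3 at day 16. For the KD-labelled line at day 16 against its ESCs it was 10 to 16. The other counts stayed within 1.5 times their value.

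With the array number as a replicate block, the counts against SCR were 13, 20, 21, 20 and 27 from ESCs to day 16, and no count moved by over 1.5 times. Same-numbered arrays had correlations over 0.1 in every pair in 3 of 27 comparisons only. As a random block (correlation 0.03) the day 16 count was 28. Members below the lower quartile of gene means were limited by signal, and 3 arrays per group limit the precision.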
